A study of Mus musculus with 5 samples.

Results

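The class 3 semaphorins *Sema3a*, *Sema3b*, *Sema3c*, *Sema3d*, *Sema3e* and *Sema3f* and the plexin receptors *Plxna1*, *Plxna2*, *Plxna3* and *Plxnd1* were examined in cancer-associated fibroblasts (CAFs) of the murine lung with and without forced expression of miR-200. These 10 genes, 6 ligands and 4 receptors, were taken by name from a table of 21835 genes, by a rule that uses no measured value. Earlier results of these data were known when the list was chosen. CAF-vec (2 samples, labelled WT control) were CAFs transduced with an empty lentiviral vector, and CAF-200 (3 samples, labelled miR-200 overexpression) were CAFs transduced with a lentiviral vector that holds the cluster of miR-200a, miR-200b and miR-429. Per the labels, infected CAFs were selected with G418, and both groups came from a lung CAF line grown in culture. The age and strain of the source animals are not stated in the sources used here. The labels do not say whether the samples of a group came from separate infections or cultures, so *p* values measure only the spread between these samples, which may be technical.

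Class 3 semaphorins are secreted guidance proteins, best known for repelling axons, that also act on endothelial and tumor cells. Most of them do not bind plexins directly. They bind the co-receptors neuropilin 1 or neuropilin 2, which associate with a plexin of the A class, and the plexin then acts inside the cell as a GTPase-activating protein on Ras-like GTPases and changes adhesion and the actin cytoskeleton. SEMA3A is known as a ligand of neuropilin 1, SEMA3F as a ligand of neuropilin 2, SEMA3B and SEMA3C as ligands of both, and SEMA3E binds plexin D1 without a neuropilin.

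The mature miRNAs of the introduced cluster are shown because their seeds, bases 2 to 8 counted from the 5′ end and written in capitals, define the sites that were searched for in the transcripts of these genes. Their mouse sequences are from RefSeq (GRCm38.p6).
miR-200b-3p: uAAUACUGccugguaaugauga
miR-200a-3p: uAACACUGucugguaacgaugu
miR-429-3p: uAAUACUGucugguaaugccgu
All 3 are encoded on the minus strand of chromosome 4, miR-200b-3p at chr4:156055685-156055706, miR-200a-3p at chr4:156054911-156054932 and miR-429-3p at chr4:156053916-156053937. miR-200b and miR-429 share the seed AAUACUG, whose 7-base match in a transcript is CAGTATT. miR-200a has the seed AACACUG, whose match is CAGTGTT.

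The unit of the deposited table is CPM (read counts scaled to a common total), and the columns summed to between 999956 and 1000111 CPM. Of the 21835 genes, 12175 reached 0.5 CPM in at least 2 samples and were tested on log2(CPM + 0.5), and all log2 fold-changes are on that scale, as CAF-200 minus CAF-vec. A call needed a limma *p* value, adjusted by the Benjamini-Hochberg method across the tested genes, under 0.01 together with a change of more than 1 on the log2 scale in either direction. By that rule 286 genes (2.35%) were lower and 289 (2.37%) higher in CAF-200, a split that became 228 lower and 365 higher after centring each sample on its median. The CAF-vec samples differed from each other more than the CAF-200 samples did, with an SD of the log2 differences over genes of 0.49 against 0.19 to 0.20. In CAF-200, 6127 genes were at 0 in all 3 samples and 0 genes in some of them only. Whether these 3 columns are independent of each other was not tested, and *p* values could be too small if they are not. *Zeb1*, a textbook miR-200 target, was 43.5 and 50.7 CPM in CAF-vec and 37.8, 37.5 and 34.1 CPM in CAF-200 (-0.36 on the log2 scale, adjusted *p* = 0.0504), and *Zeb2*, another, was 46.2 and 29.8 CPM against 31.9, 31.8 and 31.1 CPM (-0.23, adjusted *p* = 0.374, limma). The mature miRNAs themselves are not measured by these mRNA libraries. Collagen and vimentin genes of fibroblasts were abundant, *Fap* stayed below 0.4 CPM in every sample, and 3 of the 9 tested fibroblast markers (*Dcn*, *Lum* and *Thy1*) rose in CAF-200, beside 2.37% of all genes tested. *Col1a1* (-0.91), *Col1a2* (-0.75) and *Pdgfrb* (-0.25) had lower values and *Col3a1* (1.02) higher values without overlap, on the log2 scale, and did not pass the test. The summed level of the 10 fibroblast markers was highest in CAF-vec 1 (14148 CPM), beside 7457 CPM in CAF-vec 2 and, in the CAF-200 samples, 6609 to 7302 CPM. The summed level of 6 endothelial markers lay at 0.0583 to 0.857 CPM (CAF-vec) and 0.132 to 0.366 CPM (CAF-200), with *Cldn5*, *Emcn* and *Tie1* at 0, and that of 6 epithelial markers was 0.0843 to 0.228 and 0.0334 to 0.421 CPM, with *Krt18* and *Sftpc* at 0. Of 6 leukocyte markers, *Csf1r* alone exceeded 1 CPM, and their sum was 2.50 to 5.02 CPM (CAF-vec) and 2.34 to 2.49 CPM (CAF-200). The summed level of 6 neural markers lay at 6.13 to 7.61 CPM (CAF-vec) and 20.4 to 21.4 CPM (CAF-200), where *Tubb3* (3.70 to 4.38 against 18 to 19.1 CPM) made up most of it and *Sox10* was at 0. The part of these markers in the semaphorin results was not tested.

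Among the ligands, *Sema3f* and *Sema3b* fell and *Sema3a* rose in CAF-200, while *Sema3c* did not pass the test and *Sema3d* and *Sema3e* were too low to be tested. As these are bulk samples, fewer cells that express a gene and less of its RNA per cell cannot be told apart. Of the 4 tested ligands, 2 were thus called lower (against 2.35% of all genes tested) and 1 higher (against 2.37%). All 8 tested ligands and receptors exceeded 2.7 CPM in every sample, so none passed the filter through its higher group alone. In all 8 the CAF-200 values lay wholly on one side of the CAF-vec values, 5 below and 3 above, a separation also seen in 61.6% of all genes tested (37.3% below and 24.3% above). At an unadjusted *p* under 0.05 (limma) these were again 5 lower and 3 higher, beside 27.6% and 17.3% of all genes.

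**Figure D1:**
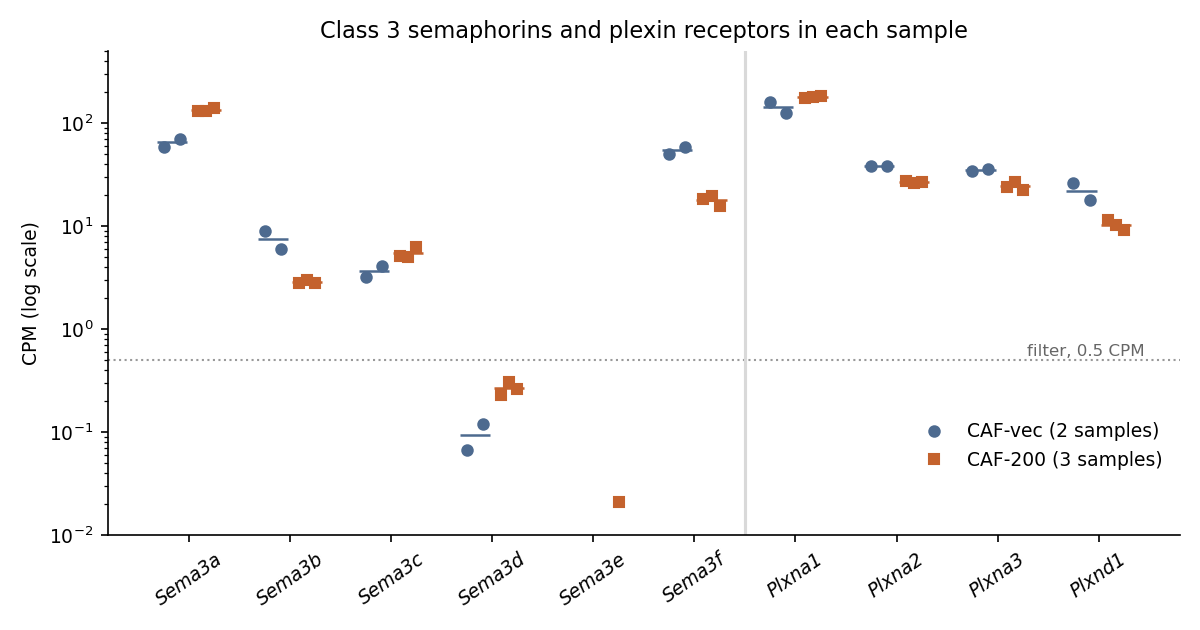
CPM of the 10 genes on a log axis, with each sample as a point (circles, CAF-vec, 2 samples; squares, CAF-200, 3 samples) and the group means as horizontal lines, drawn where every sample reached 0.01 CPM. Points under 0.01 CPM are not drawn, which leaves *Sema3e* with a single point, and in the other 9 genes the groups do not overlap.

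*Sema3f* (ENSMUSG00000034684, chr9:107681500-107710475 of GRCm38, minus strand) encodes a neuropilin 2 ligand that repels axons and endothelial cells and is known as a tumor suppressor candidate in lung cancer. CAF-vec had 50.1 and 57.9 CPM, and CAF-200 had 18.3, 19.3 and 15.6 CPM. All CAF-200 values were thus far below both CAF-vec values, with means of 54.0 ± 5.49 (SD, n = 2) and 17.8 ± 1.89 CPM (SD, n = 3), a 3.04-fold difference of the means. The change was -1.58 on the log2 scale (standard error 0.127, 95% interval -1.89 to -1.27, adjusted *p* = 0.00254, limma), the greatest fall among the 8 tested genes of the list. Leaving out CAF-200 1, CAF-200 2 or CAF-200 3 gave -1.60, -1.64 or -1.49, with adjusted *p* values of 0.0223, 0.0221 and 0.0254 (limma), above the threshold of 0.01. In those 3 reduced fits 0, 1 and 0 genes of the whole table passed both thresholds (limma), and 4058, 3924 and 3816 had an unadjusted *p* under 0.05.

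*Sema3b* (ENSMUSG00000057969, chr9:107597674-107609229, minus strand) encodes a ligand of both neuropilins, also known as a tumor suppressor candidate. Its values were 8.86 and 5.93 CPM in CAF-vec and 2.81, 2.98 and 2.76 CPM in CAF-200. The CAF-200 samples were close together, whereas the CAF-vec samples were 7.40 ± 2.08 CPM (SD, n = 2) and differed from each other by more than the CAF-200 range. The change was -1.21 on the log2 scale (standard error 0.180, 95% interval -1.66 to -0.77, adjusted *p* = 0.00817, limma). Without CAF-vec 1, its higher control, it was -0.94 and no longer beyond 1, and without CAF-vec 2 it was -1.48. With CAF-200 1, CAF-200 2 or CAF-200 3 left out the adjusted *p* was 0.0431, 0.0444 and 0.0508 (limma), and with no filter on low genes it was 0.0160, each of which ended the call.

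*Sema3a* (ENSMUSG00000028883, chr5:13125414-13602565, plus strand) encodes the founding member of the class, which collapses growth cones through neuropilin 1 and plexin A receptors. It was 58.8 and 70.1 CPM in CAF-vec and 129, 131 and 140 CPM in CAF-200. Every CAF-200 sample thus stood well above both controls, and the means of 64.4 ± 7.99 (SD, n = 2) and 134 ± 5.83 CPM (SD, n = 3) differed 2.07-fold. The change was 1.05 on the log2 scale (standard error 0.108, 95% interval 0.78 to 1.32, adjusted *p* = 0.00359, limma). It was 0.92 without CAF-vec 1, under the size threshold, and 1.18 without CAF-vec 2. Leaving out CAF-200 1, CAF-200 2 or CAF-200 3 moved the adjusted *p* to 0.0284, 0.0303 and 0.0337 (limma).

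*Sema3c* (chr5:17574281-17730268, plus strand), a ligand known for guiding neural crest cells into the heart, had 3.16 and 4.10 CPM in CAF-vec and 5.08, 5.03 and 6.25 CPM in CAF-200. The groups did not overlap, but the log2 fold-change of 0.53 (95% interval 0.13 to 0.93) had an adjusted *p* of 0.0539 and did not pass (limma). Without CAF-vec 2 it was 0.70 with an adjusted *p* of 0.00493, without CAF-vec 1 it was 0.37 with 0.0823, and without a CAF-200 sample the adjusted *p* was 0.122 to 0.170 (limma). *Sema3d* (chr5:12383385-12588948, plus strand) was below the filter, at 0.0662 and 0.119 CPM in CAF-vec and 0.231, 0.302 and 0.263 CPM in CAF-200. *Sema3e* (chr5:14025276-14256689, plus strand), the ligand of plexin D1, had values of 0 in both controls and reached at most 0.0207 CPM in CAF-200. Neither gene was tested. The class 3 ligand outside the list, *Sema3g*, was at most 0.152 CPM in any sample and was not tested either.

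Because longer transcripts yield more reads, levels of different genes were compared as CPM per kb of the longest coding transcript. On that scale, *Sema3f* was 15.9 ± 1.62 in CAF-vec (SD, n = 2) and 5.23 ± 0.556 in CAF-200 (SD, n = 3), and *Sema3a* was 10.9 ± 1.35 and 22.5 ± 0.983. On that scale the order of these ligands was opposite in the 2 groups, in every sample. In CPM without length scaling, *Sema3a* was above *Sema3f* in every sample, at 58.8 against 50.1 and 70.1 against 57.9 in CAF-vec. The length-scaled ratio of *Sema3a* to *Sema3f* was 0.671 and 0.693 in the CAF-vec samples and 4.04, 3.89 and 5.13 in the CAF-200 samples.

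*Sema3f* made up 53.0% and 54.4% of the summed length-scaled ligand level in the CAF-vec samples, and 18.6%, 19.2% and 15.2% in the CAF-200 samples. *Sema3a* made up 35.6% and 37.7% in CAF-vec, and 75.2%, 74.6% and 78.2% in CAF-200. *Sema3b* took 9.33% and 5.54% against 2.85%, 2.95% and 2.68%. Per kb, the most abundant ligand was thus *Sema3f* in both control samples and *Sema3a* in all CAF-200 samples. *Sema3c* was between 2.06% and 3.76% everywhere. The summed level itself was 27.9 and 31.4 CPM per kb in CAF-vec and 29, 29.7 and 30.2 CPM per kb in CAF-200, so the CAF-200 values lay between the CAF-vec values. No test was made on these shares and sums, and they rest on the annotated lengths rather than on the isoforms that the cells used.

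**Figure D2:**
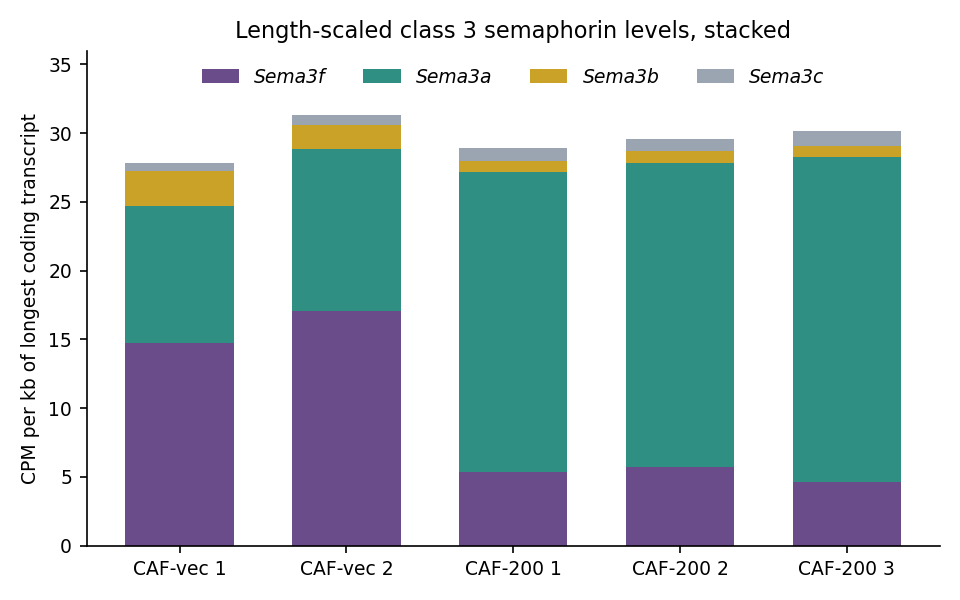
Length-scaled levels (CPM per kb of the longest coding transcript) of the 4 tested ligands, stacked for each of the 5 samples. The stacks are of like height, near 30, and the *Sema3a* part is 9.91 and 11.8 in the CAF-vec samples and 21.8 to 23.6 in the CAF-200 samples.

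Among the receptors none passed both thresholds. *Plxna2* passed the adjusted *p* alone, which makes 3 of the 8 tested genes of the list lower at that rule (against 5.57% of all genes) and 1 higher (against 4.45%). *Plxna2* (ENSMUSG00000026640, chr1:194618218-194816869, plus strand), a plexin of axon guidance, was 38.4 and 38.2 CPM in CAF-vec and 27.3, 25.9 and 26.4 CPM in CAF-200. Both groups were tight and well apart, and the change was -0.52 on the log2 scale (standard error 0.0808, adjusted *p* = 0.00884, limma). That *p* rose to 0.0114 with no filter, 0.0116 without a variance trend, 0.0148 after centring on medians and 0.0162 after quantile normalization, and to 0.0527, 0.0599 and 0.0601 without CAF-200 1, CAF-200 2 or CAF-200 3 (limma).

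*Plxna3* (chrX:74329066-74344689, plus strand), known to transmit SEMA3F signals with neuropilin 2, was 34.3 and 35.5 CPM in CAF-vec and 23.8, 26.4 and 22.4 CPM in CAF-200. Its log2 fold-change of -0.52 was the size of that of *Plxna2*, but its adjusted *p* of 0.0161 did not pass (limma). It was 0.00363 without CAF-vec 1 and 0.00347 without CAF-vec 2, and 0.0793, 0.0514 and 0.0811 without CAF-200 1, CAF-200 2 or CAF-200 3 (limma). *Plxnd1* (chr6:115954811-115995005, minus strand), the SEMA3E receptor known for patterning vessels, was 25.8 and 17.8 CPM in CAF-vec and 11.4, 10.3 and 9.07 CPM in CAF-200. The fold-change was beyond the size threshold at -1.04 (95% interval -1.49 to -0.58), and the adjusted *p* of 0.0126 missed the other (limma). The CAF-vec samples stood apart from each other here. Without CAF-vec 1 the log2 fold-change was -0.78 (adjusted *p* = 0.00219) and without CAF-vec 2 it was -1.30 (adjusted *p* = 8.9e-05, limma), fits in which the lone control is assumed to vary like the other samples. Without CAF-200 1, CAF-200 2 or CAF-200 3 the adjusted *p* was 0.0447, 0.0576 and 0.0624 (limma).

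*Plxna1* (chr6:89316314-89362620, minus strand), a receptor for SEMA3A with neuropilin 1, was 161 and 126 CPM in CAF-vec and 175, 177 and 182 CPM in CAF-200. It was the receptor with higher values in CAF-200, by 0.32 on the log2 scale (95% interval 0.01 to 0.64), and did not pass the test (adjusted *p* = 0.1002, limma). Without CAF-vec 1 the difference was 0.50 with an adjusted *p* of 0.000628, and without CAF-vec 2 it was 0.15 with an adjusted *p* of 0.0756, while leaving out a CAF-200 sample gave an adjusted *p* of 0.226 to 0.264 (limma). An exon of *Plxna1* overlaps *Gm26811* on the opposite strand, and no source used here states whether counting used strand. *Plxna4*, the plexin A outside the list, had 1.13 and 1.42 CPM against 1.11, 0.955 and 1.24 CPM, with overlapping groups and a difference of -0.15 (95% interval -0.54 to 0.25, adjusted *p* = 0.505, limma).

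Per kb of the longest transcript, *Plxna1* led the receptors at 15.9 ± 2.77 in CAF-vec (SD, n = 2) and 19.7 ± 0.373 in CAF-200 (SD, n = 3), followed in both groups by *Plxna3*, *Plxna2* and *Plxnd1*. *Plxna3* was 5.03 ± 0.126 and 3.48 ± 0.295, *Plxna2* was 3.47 ± 0.0136 and 2.40 ± 0.0649, and *Plxnd1* was 3.16 ± 0.814 and 1.48 ± 0.167 CPM per kb. *Plxna1* made up 59.4% and 55.4% of the summed plexin level in the CAF-vec samples and 72.0%, 72.0% and 74.4% in the CAF-200 samples. The sum was 29.97 and 25.1 CPM per kb in CAF-vec and 27.0, 27.2 and 27.1 CPM per kb in CAF-200, again between the controls. Over all 10 genes, *Sema3f* and *Plxna1* led in CAF-vec with overlapping ranges, as did *Plxna2* and *Plxnd1*, and *Plxnd1* and *Sema3b*, further down. In CAF-200 the order was *Sema3a*, *Plxna1*, *Sema3f*, *Plxna3*, *Plxna2*, *Plxnd1*, *Sema3c*, *Sema3b*, *Sema3d* and *Sema3e*, and no neighbors in it overlapped. These orders depend on the length used. Per kb of the mean coding transcript, a scale added after the values were seen, *Plxnd1* was 5.74 ± 1.48 in CAF-vec (SD, n = 2), overlapping *Plxna3*, and 2.69 ± 0.303 in CAF-200 (SD, n = 3), overlapping *Plxna2*. On that scale *Sema3a* (24.8 ± 3.07) was above *Plxna1* (19.3 ± 3.37) in CAF-vec (SD, n = 2), *Sema3c* and *Sema3b* overlapped in CAF-200, and *Sema3f* in CAF-vec and *Sema3a* in CAF-200 still led.

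Of the co-receptors, *Nrp2* fell at the adjusted *p* alone and *Nrp1*, more abundant per kb than any ligand or plexin of the list, did not pass the test. *Nrp2*, the neuropilin of SEMA3F, was 13.8 and 13.6 CPM per kb in CAF-vec and 7.76, 7.65 and 7.56 CPM per kb in CAF-200. Its log2 fold-change was -0.83 (adjusted *p* = 0.00305), and the adjusted *p* was 0.0296, 0.0303 and 0.0333 without CAF-200 1, CAF-200 2 or CAF-200 3 (limma). *Nrp1*, the neuropilin of SEMA3A, was 145 and 130 CPM per kb against 100, 101 and 102 CPM per kb. Those values did not overlap either, but its log2 fold-change of -0.44 did not pass (adjusted *p* = 0.0241, limma). The sum of both neuropilins was 151 ± 10.8 in CAF-vec (SD, n = 2) and 109 ± 1.02 CPM per kb in CAF-200 (SD, n = 3), of which *Nrp1* was the greater part in every sample.

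Immunoglobulin-class adhesion molecules that join neuropilin complexes stayed below 2 CPM in every sample. *Cntn2*, a contactin found in SEMA3A receptor complexes, had values of 0 in both controls and was 0.741, 0.644 and 0.772 CPM in CAF-200. It passed both thresholds as higher (adjusted *p* = 0.00522, limma), and no fold is given against values of 0. It met the filter of 0.5 CPM through its CAF-200 values alone, so a gene listed at 0 in CAF-vec could be tested only if it was higher in CAF-200. It lost the call at a pseudocount of 1, and the adjusted *p* was 0.0347, 0.0314 and 0.0373 without CAF-200 1, CAF-200 2 or CAF-200 3 (limma). *L1cam*, a partner of neuropilin 1, was 0.891 and 1.05 CPM against 0.142, 0.223 and 0.470 CPM (adjusted *p* = 0.0281). *Nrcam*, a partner of neuropilin 2, was 0.324 and 0.319 CPM against 1.07, 1.10 and 1.75 CPM (adjusted *p* = 0.0142, limma), and neither passed. These 2 also met the filter through their higher group alone. *Chl1* was listed at 0 throughout.

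Proteases that cut secreted semaphorins held the other called gene. *Adamts1*, a secreted metalloproteinase reported to cut SEMA3C, was 108 and 122 CPM in CAF-vec and 38.5, 48.9 and 33.2 CPM in CAF-200. All CAF-200 values were far below the controls, with a change of -1.52 on the log2 scale (standard error 0.175, adjusted *p* = 0.00466, limma). Its adjusted *p* was 0.0307, 0.0203 and 0.0288 without CAF-200 1, CAF-200 2 or CAF-200 3 (limma). *Furin*, the proprotein convertase that processes class 3 semaphorins at basic sites, was 68.1 and 61.7 CPM against 51.9, 48.7 and 49.4 CPM, with a log2 fold-change of -0.37 that did not pass (adjusted *p* = 0.0287, limma). *Pcsk6* and *Pcsk7* also did not pass, and *Pcsk5* was listed at 0.

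Of 26 genes that act downstream of plexins, 24 were tested. None passed both thresholds, and 12 had an unadjusted *p* under 0.05, beside 27.6% of all genes tested lower and 17.3% higher at that *p* (limma). At the adjusted *p* alone 2 of the 24 were lower and 1 was higher, beside 5.57% and 4.45% of all genes tested (limma). *Fyn*, a Src-family kinase of plexin A receptors, was 54.6 and 51.2 CPM in CAF-vec and 36.5, 33.7 and 33.0 CPM in CAF-200 (-0.61 on the log2 scale, adjusted *p* = 0.00801, limma). *Farp1*, a FERM-domain protein that binds plexin A, was 136 and 148 CPM against 95.5, 93.2 and 91.3 CPM (-0.60, adjusted *p* = 0.00765, limma). *Rnd1*, a GTPase that binds plexin A1 and opens it for signaling, was 36.1 and 39.2 CPM against 56.2, 55.9 and 62.6 CPM (0.62, adjusted *p* = 0.00893, limma). In each of these 3 genes the groups did not overlap, and the change was under 1 on the log2 scale. The median log2 fold-change of the 24 was -0.01, beside -0.09 over all genes tested and -0.52 over the 4 plexins. The adaptor *Gipc1* was 173 and 86.5 CPM in CAF-vec against 86.2, 78.8 and 71.1 CPM, where CAF-vec 1 alone was high (adjusted *p* = 0.142, limma). Over the co-receptors, remaining ligand and plexin, proteases and effectors together, 34 of 39 genes were tested, of which 1 (*Adamts1*) was called lower, beside 2.35% of all genes tested, and 1 higher, beside 2.37%. The higher call is *Cntn2*, which was tested through its higher group alone, and the count is 0 with at least 1 CPM asked of every sample.

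**Figure D3:**
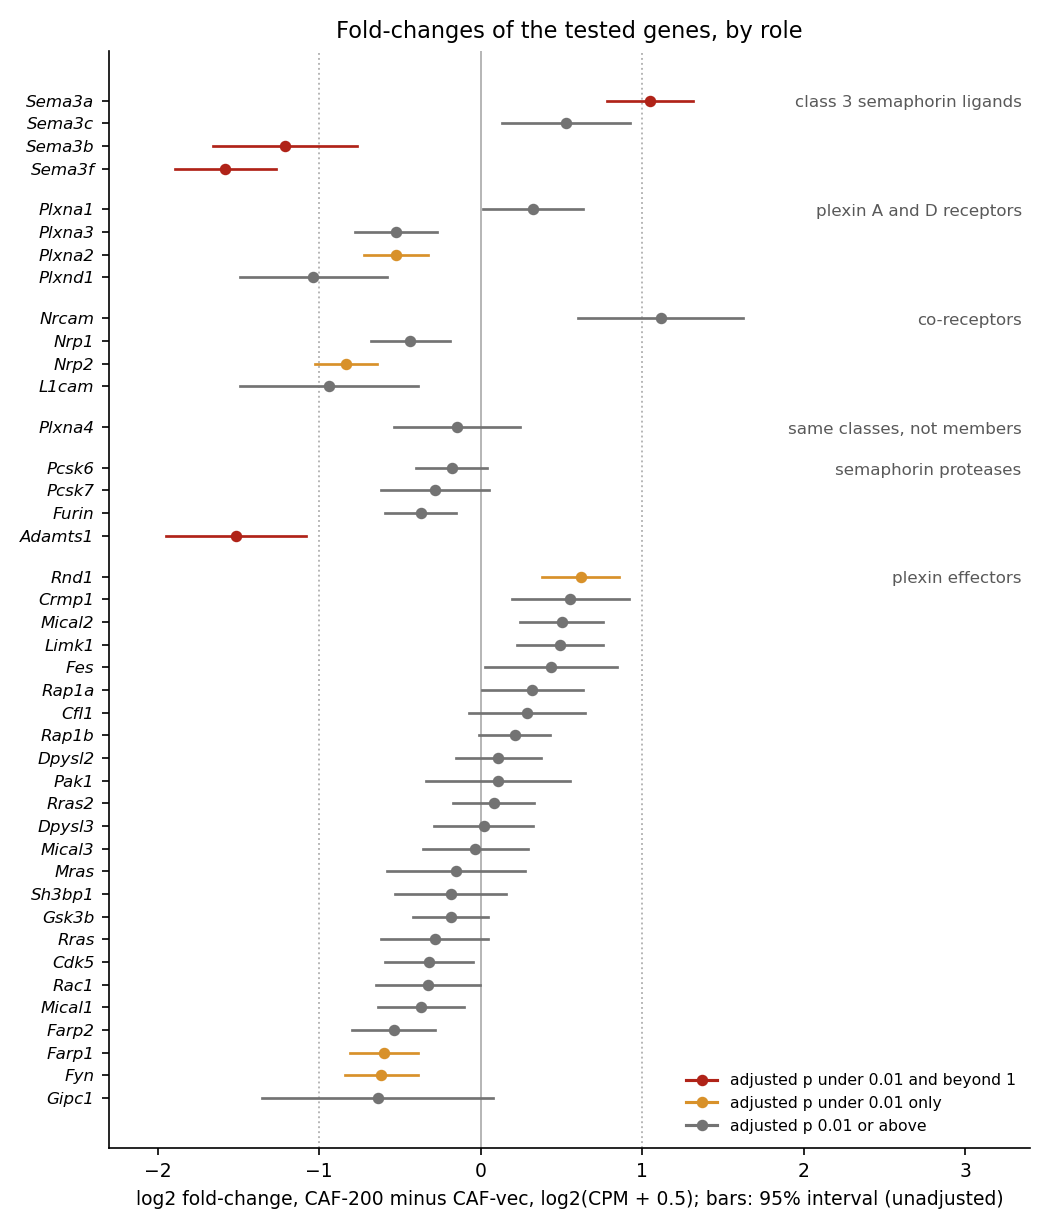
Log2 fold-changes (points, CAF-200 minus CAF-vec on log2(CPM + 0.5)) with unadjusted 95% intervals (bars) for the tested genes by role, colored by which thresholds they passed, with dotted lines at -1 and 1. *Sema3f* (-1.58), *Adamts1* (-1.52), *Sema3b* (-1.21) and *Sema3a* (1.05) passed both thresholds, and *Cntn2*, which also did, is left out because it was listed at 0 in CAF-vec.

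Annotated 3′-UTRs of the 10 genes were searched for the 7-base seed matches on the transcript strand, in the longest 3′-UTR of each gene (GENCODE M21, GRCm38). A match to either seed was present in 6 of 10 genes, against 30.3% of the tested genes with a 3′-UTR. The miR-200b and miR-429 match was found in 5 (15.7% of tested genes) and the miR-200a match in 3 (20.8%). The 10 genes include *Sema3d* and *Sema3e*, which are not among the tested genes, and *Sema3d* is in each of these counts. The 3′-UTRs of these genes ran from 554 bases in *Sema3b* to 4708 in *Plxna2*, beside a median of 1174 bases over the tested genes, and the shares were not adjusted for length.

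The sites of *Sema3f* and *Sema3a*, which moved in opposite directions, are shown with those of the plexins and the 2 of *Sema3c*, each with its 7-base match in capitals.
Sema3f, miR-200b and miR-429: ccctgcaaagaCAGTATTtattggtgggt
Sema3a, miR-200b and miR-429: tctaattaactCAGTATTaacttctcacc
Plxna2, miR-200b and miR-429: ttaaaaagcagCAGTATTtattattatat
Plxna3, miR-200a: ccaaatttcctCAGTGTTgtaggcacttg
Sema3c, miR-200b and miR-429: caacaaggatgCAGTATTattaaagcatt
Sema3c, miR-200a: agagtgcacctCAGTGTTgtagaaaacac
The *Sema3f* match is at chr9:107682306-107682312 on the minus strand, 117 bases into a 3′-UTR of 929 bases. The *Sema3a* match is at chr5:13601225-13601231 on the plus strand, at base 1622 of 2962. That of *Plxna2* is at chr1:194813297-194813303 (base 1136 of 4708) and that of *Plxna3* at chrX:74344274-74344280 (base 732 of 1147), both on the plus strand. *Sema3c* holds its matches at chr5:17728634-17728640 and chr5:17729567-17729573, and *Sema3d*, which was not tested, holds 4.

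Among the genes with a match, *Sema3f*, *Plxna2* and *Plxna3* had lower values in CAF-200, and *Sema3a*, *Sema3c* and the untested *Sema3d* had higher values. Of these, *Plxna3* and *Sema3c* did not pass the test. Among the genes without a match, *Sema3b* and *Plxnd1* had lower values and *Plxna1* higher values, and *Sema3b* alone was called. *Sema3e*, also without a match, was not tested. Whether a match bears on these directions was not tested. A match is a description of these letters and was not tested as a site. Allowing any annotated 3′-UTR left 6 of 10 genes with a match (31.7% of tested genes), and allowing the 6-base match to bases 2 to 7 gave 9 of 10 (54.6%).

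**Figure D4:**
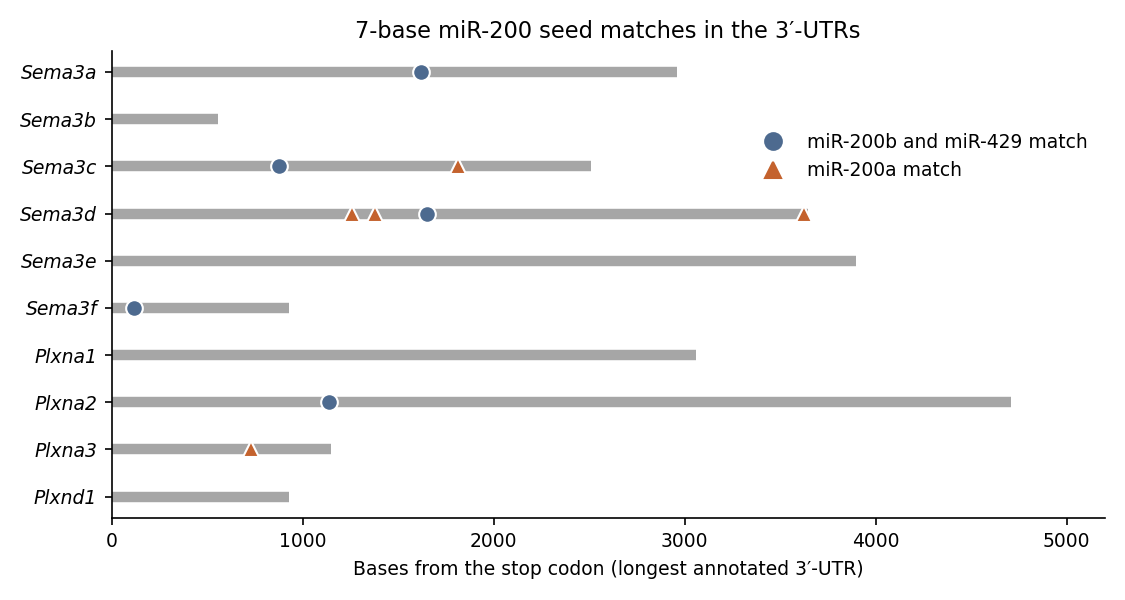
Longest annotated 3′-UTR of each of the 10 genes as a bar in bases from the stop codon, with matches to the miR-200b and miR-429 seed (circles) and to the miR-200a seed (triangles). The only match of *Sema3f* lies 117 bases from its stop codon, and *Sema3b*, *Sema3e*, *Plxna1* and *Plxnd1* have none.

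*Sema3b* and *Sema3f*, the ligands that fell, are neighbors, 72.3 kb apart on the minus strand of chromosome 9. Within 250 kb of the pair, a distance chosen after values were seen, the table held 24 other genes, of which 16 were tested. Only *Zmynd10*, which is needed for motile cilia and is named here after its value was seen, was called. It was 1.66 and 1.47 CPM in CAF-vec and 0.301, 0.113 and 0.222 CPM in CAF-200 (-1.54 on the log2 scale, adjusted *p* = 0.00466, limma). Its CAF-vec values alone met the filter. That call is 1 of 16, where 2.35% of all genes tested were called lower. The fold-changes of the 16 ran from -1.54 to 0.53 with a median of -0.39, beside -0.09 over all genes tested, and 14 were below 0, as were 58.3% of all genes tested. *Sema3d*, *Sema3a* and *Sema3e* follow each other on chromosome 5, with gaps of 536 and 423 kb, and none of the table's other genes within 250 kb of them could be tested.

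The genes whose values over the 5 samples were most like those of the called ligands were found by the root mean square difference of log2 profiles centred on their own mean. For *Sema3a* these were *Orc6* (0.0346), *Glipr2* (0.0360) and *Rbmx2* (0.0402). For *Sema3b*, *Atp1b1* (0.0395) and *Alkbh7* (0.0418) were among the 3 most similar. The nearest profiles to *Sema3f* were those of *Syndig1* (0.0648), *Tle2* (0.0747) and *Adamts1* (0.101), the protease described above. With 5 samples in 2 groups, this likeness mostly ranks genes of like fold-change.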

How the data were processed

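RNA of CAF-vec (2 samples) and CAF-200 (3 samples) was sequenced as stranded, paired-end mRNA libraries. The authors deposited 1 table of CPM values named for TMM, not whole counts, so the depth of each sample is unknown and no count model was run. The submitters' processing notes name FastQC, cutadapt, Trimmomatic, STAR, RSEM, edgeR and the build GRCm38 (mm10). In the CAF-200 columns 6127 genes were at 0 in all 3 samples and 0 genes in some of them only. All 5 columns were used and 0 were left out. The study describes 3 RNA samples of each group, whereas the series holds 2 of CAF-vec.

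Genes that reached 0.5 CPM in 2 or more samples were log2-transformed after adding 0.5 and compared by limma (version 3.58.1, R 4.3.3) with a variance trend and the Benjamini-Hochberg correction. The study's thresholds, 0.01 for the corrected *p* and 1 for the size of the change on the log2 scale, defined a call. The fit was tested on simulated data. Names, lengths, positions and 3′-UTRs came from GENCODE M21 by Ensembl identifier (21795 of 21835 named), and 3 miRNAs from RefSeq.

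The 10 genes, the pathway and marker lists and the tests were chosen with earlier results of these data known. Genes named are the 10, the neuropilins, pathway genes past both thresholds, *Zeb1* and *Zeb2* as a check, and the 3 most similar profiles of each called gene of the 10, of which 1 is not reported here. Other pathway genes, markers and the neighboring gene were named after their values were seen. Alternatives were a pseudocount of 1 or 0.1, no filter, a minimum of 1 CPM throughout, quantile normalization, median centring, no variance trend, an adjusted *p* under 0.05, the replicate number as a block, and each sample left out. Python 3.11.15 with pandas 2.3.3, numpy 2.4.6 and matplotlib 3.10.9 was used.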

Additional observations from a re-analysis of the deposited data

How the results depend on the processing

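Of the 8 tested ligands and receptors, none changed direction under the 14 alternatives, of which the adjusted *p* under 0.05 reuses the main fit. The 2 called lower and 1 called higher became 1 and 0 with the replicate number as a block. The lower count was 1 with no filter and 3 at an adjusted *p* under 0.05 (limma). At the adjusted *p* alone, 3 were lower and 1 higher, which became 1 and 0 with the block, 1 lower with no filter, and 5 lower at an adjusted *p* under 0.05. In the block only 2 numbers are shared and CAF-200 3 drops out of the fold-change. The labels do not say what a number marks, same-numbered samples deviated together with correlations of 0.249 and 0.134, and the numbers were not taken as a pairing. With the block, adjusted *p* was 0.00783 for *Sema3f*, 0.0272 for *Sema3b*, 0.0208 for *Sema3a*, 0.0781 for *Plxna2*, 0.0285 for *Nrp2* and 0.0287 for *Cntn2*, and 70 genes of the whole table were lower and 101 higher (limma).

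Leaving out each sample in turn gave 0 to 3 of the 8 genes lower and 0 to 1 higher past both thresholds, and 0 to 5 lower and 0 to 2 higher at the adjusted *p* alone. The 3 lower were reached without CAF-vec 2. The counts of 0 arose without a CAF-200 sample, where at an unadjusted *p* under 0.05 (limma) 5 were still lower and 1 or 2 higher, and, for the higher gene past both thresholds, without CAF-vec 1. The fits without a control assume that the lone CAF-vec sample varies like the others. Pathway genes past both thresholds, 1 lower and 1 higher, ran from 0 to 2 in each direction on leaving out a sample. The higher count rose to 2 once the adjusted *p* could reach 0.05, and was 0 at a pseudocount of 1, with at least 1 CPM in every sample and with the block. *Zeb2* ran from -0.54 without CAF-vec 2 to 0.083 without CAF-vec 1.

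With the mean transcript length in place of the longest, the share of *Sema3a* in CAF-vec was 38.3% in place of 36.6%, and that of *Sema3b* in CAF-200 was 2.33% in place of 2.83%. With no filter, the change of *Sema3d* was 0.37 on the log2 scale (adjusted *p* = 0.0247) and that of *Sema3e* 0.02 (adjusted *p* = 0.759, limma). A count test on recovered reads was not run because whole reads could not be recovered. Unknown depth limits what can be said of genes listed at or near 0.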
